A study of Mus musculus with 6 samples.

Results

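The collagen chain genes encode the α chains of which every collagen molecule is built. They were taken from the count table as every gene whose symbol is Col, a number, the letter a and a number, and this gave 44 of the 25860 genes. By the kind of molecule the chains form, 11 are fibrillar, 6 belong to basement membrane type IV, 9 are FACIT (fibril-associated) and 18 are of other kinds. The rule used symbols alone and no measured value, though it was set with earlier results of these data known. Lungs that looked normal were taken at 12 months of age from 3 RAG1-/- mice (called replicates 1 to 3) and from 3 RAG1-/- Sgo1-/+ mice (called replicates 4 to 6), with 1 library of mRNA per sample. RAG1 (recombination activating gene 1) is needed to assemble antigen receptors, so both groups by genotype lack mature T and B cells, and the groups differ by the loss of 1 copy of Sgo1 (Shugoshin-1), which protects chromosome cohesion. The animals were F2 mice of a cross of RAG1-/- with Sgo1-/+ mice on the C57BL/6 background, typed from tail DNA. Both sexes were used, without any treatment. The study compared the transcriptomes of lung tissue without visible change between these genotypes, as Sgo1-/+ is a model of chromosome instability, and the collagen mRNAs are read from that comparison here.

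Each collagen chain has a long stretch in which glycine recurs at regular steps, and 3 such chains wind into a triple helix. Fibrillar collagens of types I, III and V pack side by side into the fibrils that bear tension in airway walls, vessels and alveolar septa, and fibroblasts are their main source. Type IV collagen forms the sheet-like network of the basement membrane, where α1 and α2 make the common trimer and α3, α4 and α5 make another that lies between alveolar epithelium and capillary. FACIT collagens sit on the surface of fibrils, type VI forms beaded filaments around cells, and further members are transmembrane, anchoring or network-forming.

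Counted on genes were 3205822 to 9366774 reads per library, so that 3 reads, the smallest amount treated as detected, were 0.320 to 0.936 CPM (each count scaled to a total of 1000000 reads on genes). Sgo1 had 6, 2 and 4 reads in RAG1-/- against 6, 0 and 2 with 1 Sgo1 copy deleted, a depth at which that loss is not visible, and Rag1 had 8 to 24 reads. One library went against its label: Igkc, the immunoglobulin kappa constant region, had 1853 reads in the library labelled RAG1-/- replicate 2, 8 in replicate 1 and 0 in the other 4. Another differed in sex: Xist, the RNA of the inactive X chromosome, had 7717 reads in RAG1-/- replicate 1 and 4 to 8 elsewhere, and the Y-linked gene Ddx3y had 2 reads there against 342 to 1228. Both libraries are in the same group, so values without each are given below. Summed alveolar type 2 cell markers (Sftpc, Sftpb, Sftpa1, Lamp3 and Abca3) stood at 20277 to 29681 CPM in every library.

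Collagen mRNA was a small part of the lung's reads. The 44 chains together had 1873, 2285 and 2254 CPM in RAG1-/- and 2483, 1901 and 1980 CPM in RAG1-/- Sgo1-/+, or 0.187 to 0.248% of all reads. The group means were 2137 ± 230 and 2122 ± 316 CPM (SD, n = 3 each), and the groups overlapped. In bulk tissue fewer cells of a type and less RNA per cell cannot be told apart, and this holds for every value here. Type IV chains took 41.1 to 55.5% of the collagen reads and fibrillar chains 20.5 to 29.9%. The 6 chains with the most reads (Col4a1, Col4a2, Col3a1, Col4a3, Col1a2 and Col4a5) held 61.3% of all collagen reads. Per kilobase of transcript the highest mean levels were those of Col3a1, Col4a1 and Col4a2, with 47.0, 44.2 and 39.4 CPM per kb in RAG1-/- and 40.0, 42.5 and 45.0 CPM per kb in RAG1-/- Sgo1-/+, so that their order turned between the groups within the spread of the libraries. Col6a1 (31.9) and Col1a2 (31.0) came next over all 6 libraries.

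**Figure D1:**
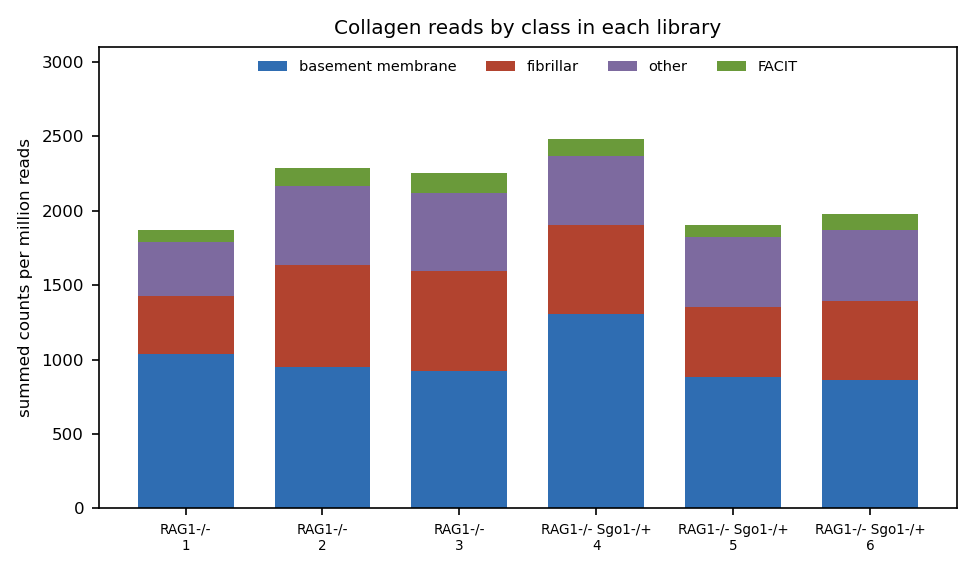
Summed CPM (counts scaled to a common total) of the collagen chain genes in each library, stacked by class, with RAG1-/- replicates 1 to 3 on the left and RAG1-/- Sgo1-/+ replicates 4 to 6 on the right. The totals run from 1873 to 2483 CPM and the groups overlap, with the smallest fibrillar part (384 CPM) in replicate 1 and the largest type IV part (1306 CPM) in replicate 4.

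Of the 44 genes, 35 reached 10 reads in the sum of the libraries and were tested among 17231 genes by edgeR (quasi-likelihood). With an adjusted P under 0.05 required together with a 2-fold difference, no gene in the table passed (0% of the genes tested, smallest adjusted P=0.832), while DESeq2's Wald test called 1 gene (Awat1, named here only for this count) and limma-voom called 0. At an unadjusted P under 0.05, 1 collagen chain (Col4a4) was higher in RAG1-/- Sgo1-/+, where 3.15% of all tested genes were, and 0 were lower, where 2.52% were. DESeq2 and limma-voom also gave 1 higher and 0 lower. In 1 of the 35 (Col4a4 again) all libraries of RAG1-/- Sgo1-/+ lay above all of RAG1-/-, where 6.24% of the tested genes did so, and in 0 did they all lie below, where 5.54% did. The log2 fold change (RAG1-/- Sgo1-/+ over RAG1-/-) was positive for 22 chains and negative for 13, with a median of 0.074 against 0.034 over all tested genes. By class the medians were 0.078 for fibrillar, 0.18 for type IV, 0.051 for FACIT and 0.037 for the other chains.

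Errors were widest among chains with few reads. In the 23 chains with at least 300 reads in sum, the standard error (SE) of the log2 fold change was 0.15 to 0.41 and the largest difference was 0.45. The 12 tested chains below that ran from -0.33 (Col28a1) to 1.69 (Col6a6, on 12 reads in all). The other 9 chains were too low to test. Of these, Col9a1, Col9a2 and Col25a1 had no read in any library, Col2a1, Col10a1, Col11a1 and Col19a1 had at most 3 reads in each, and Col22a1 and Col6a4 had at most 4.

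**Figure D2:**
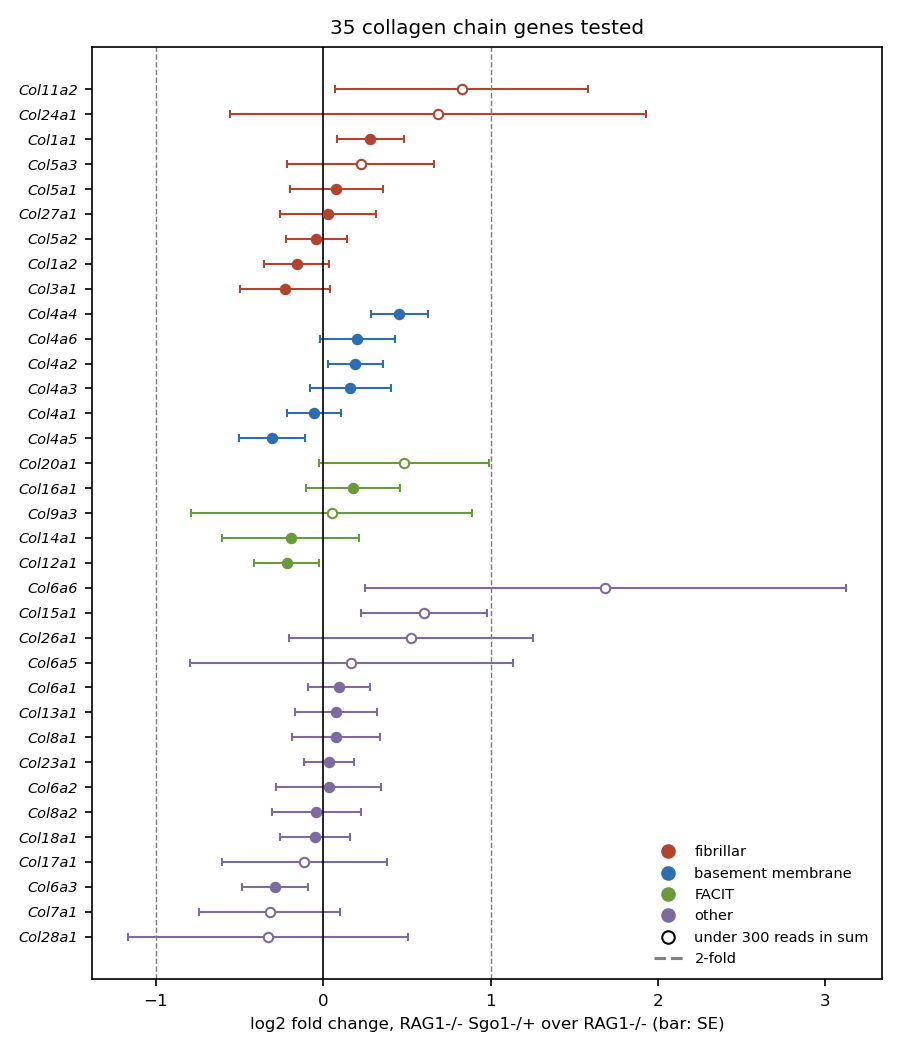
Fitted log2 fold change of each of the 35 tested collagen chain genes, RAG1-/- Sgo1-/+ over RAG1-/-, with bars of 1 SE, open points for chains with under 300 reads in sum and dashed lines at 2-fold. Chains with more reads lie between -0.31 (Col4a5) and 0.45 (Col4a4), and the wider bars belong to the chains with few reads.

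Type IV chains had the most reads of the 4 classes. Col4a1, one gene of the pair whose products form the common basement membrane trimer, had 328, 284 and 265 CPM in RAG1-/- and 347, 253 and 245 CPM in RAG1-/- Sgo1-/+ (a log2 fold change of -0.05, SE 0.16, edgeR adjusted P=0.972). Its partner Col4a2, read in the opposite direction from a shared start region, had 275, 264 and 224 CPM against 357, 242 and 271 CPM (0.19, SE 0.16, adjusted P=0.874). In both genes replicate 4 was the highest library and the groups overlapped. Per kilobase of the longest annotated transcript the pair was near balance, with a ratio of Col4a1 to Col4a2 of 1.17, 1.05 and 1.15 in RAG1-/- against 0.947, 1.02 and 0.881 in the other group. Every RAG1-/- library was above every RAG1-/- Sgo1-/+ library in this ratio, which was 1 of several computed after the values were known and was not tested. Among these ratios that of Col4a5 to Col4a6 was apart in the same direction. Per kilobase it was 4.83, 5.45 and 8.11 in RAG1-/- against 4.46, 3.94 and 4.04, and it was not tested either.

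Col4a4, which encodes the α4 chain of the alveolar type of network, was the chain with the smallest P. It had 479, 286 and 441 reads in RAG1-/- against 490, 376 and 229 in RAG1-/- Sgo1-/+, or 51.1, 57.8 and 66.7 CPM against 99.0, 69.6 and 71.4 CPM. The lowest RAG1-/- Sgo1-/+ library stood just above the highest RAG1-/- library, and replicate 4 stood well above both. The log2 fold change was 0.45 (SE 0.17, edgeR unadjusted P=0.0233, adjusted P=0.832), and an exact permutation test of CPM gave P=0.1, the smallest it can give with 3 samples a group. The unadjusted P passed above 0.05 when replicate 4 was omitted (log2 fold change 0.27), when RAG1-/- replicate 1 was (0.36) and when the library labelled RAG1-/- replicate 2 was (0.44). Over all 6 omissions the log2 fold change ran from 0.27 to 0.56.

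The other chains of that trimer gave smaller or opposite differences. Col4a3, its neighbour in opposite orientation, had 226, 162 and 195 CPM in RAG1-/- and 317, 165 and 170 CPM in RAG1-/- Sgo1-/+ (a log2 fold change of 0.16, SE 0.24, adjusted P=0.934). Col4a5, on the X chromosome, had 132, 155 and 156 CPM against 152, 124 and 81.7 CPM (-0.31, SE 0.20, adjusted P=0.849). Replicate 4 was again the highest for Col4a3, and replicate 6 was the lowest for Col4a5. Per kilobase Col4a3 exceeded Col4a4 in every library, by a ratio of 2.79 to 5.22. Col4a6, next to Col4a5 and also read away from it, had 27.9, 28.9 and 19.5 CPM against 34.5, 31.9 and 20.6 CPM (0.20, SE 0.23, adjusted P=0.899).

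Replicate 4 had the highest level of 5 of the 6 type IV chains (all but Col4a5). Without it the median log2 fold change of the class moved from 0.18 to -0.10, and 2 collagen chains then had an unadjusted P under 0.05, both lower in RAG1-/- Sgo1-/+, against 3.01% of all tested genes in that direction. They were Col4a5 (-0.52, SE 0.19, edgeR adjusted P=0.579) and the FACIT chain Col12a1 (-0.47, SE 0.16, adjusted P=0.570). The summed level of alveolar type 1 cell markers (Ager, Hopx, Aqp5, Rtkn2 and Pdpn) was also highest in that library. It was 4134 to 5798 CPM in RAG1-/- and 3864 to 6406 CPM in RAG1-/- Sgo1-/+, with 0 of 5 at an unadjusted P under 0.05 in either direction in edgeR, DESeq2 and limma-voom. Their part in the type IV values was not tested. Endothelial markers (Pecam1, Cdh5, Kdr, Tek and Emcn) summed to 1080 to 1108 CPM against 852 to 1081 CPM. In 2 of these 5 (Tek and Cdh5) all RAG1-/- Sgo1-/+ libraries lay below those of RAG1-/-, where 5.54% of the tested genes did so. At an unadjusted P under 0.05 edgeR gave 0 lower, where 2.52% of all tested genes were, whereas DESeq2 and limma-voom gave 1 (Tek). Of 16 listed laminins, nidogens and other basement membrane partners, 1 (Lama1) was higher at an unadjusted P under 0.05 and 0 were lower. This held in DESeq2 as in edgeR, and 3.15% of all tested genes were higher in edgeR. The median of the 16 was -0.022. Lama1 (log2 fold change 2.28) had 64 reads in sum, and its P was above that threshold without replicate 1, 2 or 4. With limma-voom Lama5 was higher too, for 2 in all (140.9 to 168 CPM in RAG1-/- and 178 to 220.2 CPM in RAG1-/- Sgo1-/+).

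Of the fibrillar chains, Col3a1 and Col1a2 had the most reads. Col3a1, the single chain of type III collagen of distensible tissue, had 156, 300.4 and 328 CPM in RAG1-/- and 287, 173 and 207 CPM in RAG1-/- Sgo1-/+ (a log2 fold change of -0.23, SE 0.27, adjusted P=0.905). Col1a2, the α2 chain of type I collagen, had 121, 219 and 185 CPM against 164, 160.4 and 145 CPM (-0.16, SE 0.20, adjusted P=0.908). In both the libraries of RAG1-/- Sgo1-/+ lay between the lowest and the highest of RAG1-/-. Col1a1, the α1 chain of the same trimer, had 34.1, 39.0 and 50.4 CPM against 61.0, 39.1 and 49.9 CPM (0.28, SE 0.20, adjusted P=0.856). In type I collagen α1 chains outnumber α2 chains, whereas per kilobase the reads of Col1a2 exceeded those of Col1a1 in every library, by a ratio of 2.98 to 6.23. The GC content of the transcripts was 58.9% for Col1a1 and 55.7% for Col1a2, and its part in this ratio was not tested.

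Type V collagen, which is built into type I fibrils and limits their width, overlapped between the groups in each chain. Col5a2 had 38.2, 58.4 and 53.4 CPM in RAG1-/- and 43.0, 45.8 and 57.1 CPM in RAG1-/- Sgo1-/+ (a log2 fold change of -0.04, SE 0.18, adjusted P=0.981). Col5a1 had 14.4, 33.7 and 27.5 CPM against 24.8, 24.3 and 30.3 CPM (0.08, SE 0.28, adjusted P=0.977). Replicate 1 was the lowest in both. The minor chain Col5a3 had 2.99, 6.06 and 4.54 CPM against 3.43, 4.45 and 8.11 CPM (0.22, SE 0.44, adjusted P=0.953). Col11a2, of cartilage fibrils, had 0.747, 1.62 and 0.454 CPM against 0.808, 2.22 and 1.87 CPM (0.83, SE 0.76, adjusted P=0.879), the largest positive difference among chains with at least 30 reads. Cartilage markers were close to absent, with Matn1 and Snorc at 0 reads in every library and a summed level of 8 markers of 2.42 to 4.91 CPM in RAG1-/- and 2.22 to 8.11 CPM in RAG1-/- Sgo1-/+, highest in replicate 6. Col27a1 had 16.2 to 23.8 CPM against 14.5 to 29.9 CPM, and Col24a1 had 12 reads in all.

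**Figure D3:**
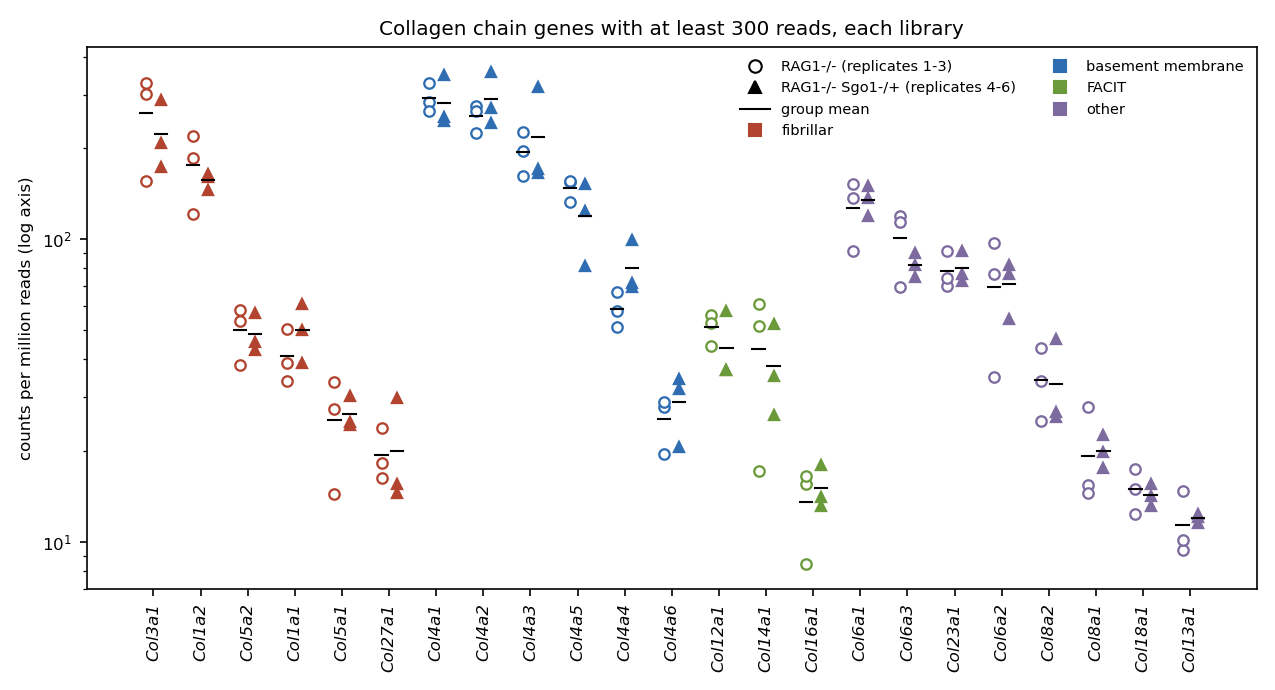
CPM (log axis) of the 23 collagen chain genes with at least 300 reads in sum, 1 point per library (open circles RAG1-/-, triangles RAG1-/- Sgo1-/+, bars group means), colored by class. The groups overlap in all but Col4a4, where RAG1-/- spans 51.1 to 66.7 CPM and RAG1-/- Sgo1-/+ 69.6 to 99.0 CPM.

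Among the FACIT chains, Col12a1 had 56.2, 44.2 and 52.8 CPM in RAG1-/- and 57.8, 36.9 and 36.8 CPM in RAG1-/- Sgo1-/+ (a log2 fold change of -0.22, SE 0.19, adjusted P=0.874). Col14a1, which binds fibrils together with decorin, had 17.2, 51.7 and 61.1 CPM against 35.2, 26.3 and 52.4 CPM (-0.20, SE 0.41, adjusted P=0.956). It had the largest SE of the chains with at least 300 reads, and the range within RAG1-/- covered every library of the other group. Col16a1 had 8.43, 15.6 and 16.5 CPM against 18.0, 14.1 and 13.1 CPM (0.18, SE 0.28, adjusted P=0.940). Col20a1 and Col9a3 were at 5.30 CPM or less in every library.

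Type VI collagen, whose 3 main chains come together in 1 trimer, was the largest of the other kinds. Col6a1 had 91.3, 136 and 151 CPM in RAG1-/- and 136, 119 and 150 CPM in RAG1-/- Sgo1-/+ (a log2 fold change of 0.10, SE 0.19, adjusted P=0.952). Col6a2 had 34.9, 76.6 and 97.2 CPM against 76.8, 54.3 and 82.0 CPM (0.03, SE 0.32, adjusted P=0.992). Col6a3 had 69.3, 119 and 114 CPM against 81.8, 89.8 and 74.9 CPM (-0.29, SE 0.20, adjusted P=0.855). All 3 were lowest in replicate 1. Across the 6 libraries log2 CPM of Col6a1 and Col6a2, which are neighbours on chromosome 10, had a Pearson r of 0.99, the highest of the 253 pairs of the 23 chains, and points share the depth of their library. The low chains Col6a5 (0 to 4.84 CPM), Col6a4 and Col6a6 belong to the same type.

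The remaining chains include surface and network collagens. Col23a1, a transmembrane collagen, had 69.7, 91.3 and 74.5 CPM in RAG1-/- and 72.9, 91.5 and 76.4 CPM in RAG1-/- Sgo1-/+ (a log2 fold change of 0.04, SE 0.15, adjusted P=0.980), the smallest SE of any chain. The network-forming Col8a2 (25.1 to 46.9 CPM) and Col8a1 (14.5 to 27.9 CPM), the transmembrane Col13a1 (9.4 to 14.7 CPM) and Col18a1 (12.4 to 17.4 CPM), the precursor of endostatin, overlapped between groups. Col15a1, the related chain of the basement membrane zone, had 4.91, 7.27 and 3.94 CPM against 7.27, 5.56 and 11.9 CPM (0.60, SE 0.38, adjusted P=0.847). Col7a1 of anchoring fibrils had 5.23, 2.63 and 4.84 CPM against 2.42, 3.89 and 4.06 CPM (-0.32, SE 0.42, adjusted P=0.916). Col28a1 had 0.427, 2.22 and 5.90 CPM against 3.84, 1.48 and 1.25 CPM (-0.33, SE 0.84, adjusted P=0.965). Col17a1 of hemidesmosomes and Col26a1 stayed at or below 4.06 CPM.

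Much of the variation lay between libraries of 1 group. RAG1-/- replicate 1 had the lowest level in 14 of the 23 chains and the highest in 0, with the lowest level in 5 of 6 fibrillar, 2 of 3 FACIT, 6 of 8 other and 1 of 6 type IV chains. The ratio of summed fibrillar to type IV CPM was 0.369 there, 0.719 and 0.721 in the other RAG1-/- libraries and 0.458, 0.526 and 0.619 in RAG1-/- Sgo1-/+. Within RAG1-/-, 4 of the 23 chains spanned at least 2-fold, and within RAG1-/- Sgo1-/+ 1 did.

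**Figure D4:**
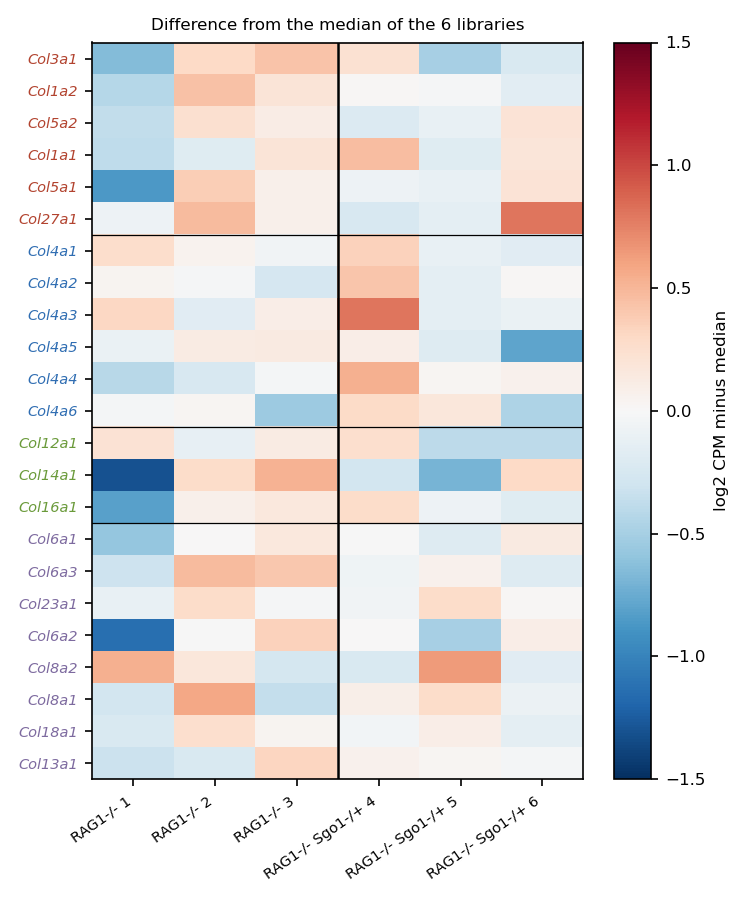
Log2 CPM of the 23 collagen chain genes with at least 300 reads in sum, each minus its median over the 6 libraries, with genes in rows by class and libraries in columns. RAG1-/- replicate 1 is the lowest library in 14 rows, and RAG1-/- Sgo1-/+ replicate 4 is the highest in 5 of the 6 type IV rows.

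Leaving out replicate 1 changed which chains had a small P. Without RAG1-/- replicate 1, 4 chains had an unadjusted P under 0.05, all lower in RAG1-/- Sgo1-/+, against 3.44% of all tested genes in that direction. They were Col6a3 (log2 fold change -0.50, SE 0.14), Col1a2 (-0.37, SE 0.15), Col3a1 (-0.50, SE 0.20) and Col14a1 (-0.59, SE 0.25), each at an edgeR adjusted P=0.702. The log2 fold change was then negative in 21 of 35 chains and the median was -0.068, against 0.034 over all genes. Without the library labelled RAG1-/- replicate 2, 0 chains had an unadjusted P under 0.05 in either direction in edgeR, where 1.81% of all tested genes were higher and 1.69% lower, and the median was 0.16. As the 1 library with more than 8 Xist reads, replicate 1 cannot be told apart from its sex, and without it all libraries had Ddx3y reads.

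Markers of other cells also set replicate 1 apart. Mesothelial markers (Msln, Upk3b, Wt1, Upk1b and Lrrn4) summed to 93.8, 929 and 1129 CPM in RAG1-/- and 658, 400 and 771 CPM in RAG1-/- Sgo1-/+. Adipocyte markers (6 genes, among them Adipoq, Cfd and Cidec) summed to 948, 147 and 123 CPM against 126, 76.9 and 155 CPM. All 6 had a negative log2 fold change and 3 (Cfd, Adipoq and Cidec, -2.14, -2.10 and -1.08) were lower at an unadjusted P under 0.05 in edgeR, against 2 in DESeq2 and 0 in limma-voom. Replicate 1 was lowest in the first list and highest in the second, and the part of either in the low fibrillar levels was not tested. Fibroblast markers (8 genes, among them Pdgfra, Dcn and Lum) summed to 2519 to 3447 CPM in RAG1-/- and 1983 to 2886 CPM in RAG1-/- Sgo1-/+, all 8 with a negative log2 fold change and 1 (Lum) lower at an unadjusted P under 0.05. Smooth muscle markers went the other way, with 127 to 180 CPM against 172 to 249 CPM and all 6 positive. At that threshold 3 were higher in edgeR and DESeq2 (Cnn1, Actg2 and Acta2, log2 fold change 0.96, 1.43 and 0.74, each at an edgeR adjusted P=0.832). With limma-voom Myh11 was higher too, for 4 in all. Cnn1, Actg2 and Acta2 each kept an edgeR unadjusted P under 0.05 in every omission of 1 library. In 4 of the 6 (these 3 and Tagln) all RAG1-/- Sgo1-/+ libraries lay above those of RAG1-/-, where 6.24% of all tested genes did so. Of all tested genes 3.15% were higher and 2.52% lower at that threshold in edgeR. The part of these markers in the collagen values was not tested.

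Chains of 1 class had a higher median correlation than chains of different classes. Over the 6 libraries the median Pearson r of log2 CPM was 0.41 for 61 pairs within a class and 0.069 for 192 pairs between classes. The class of other kinds mixes several types of molecule and counts here as 1 class. It held both the highest and the lowest within-class value (0.99 for Col6a1 with Col6a2, -0.85 for Col6a2 with Col8a2). The pairs most alike were Col6a1 with Col6a2 (0.99), Col14a1 with Col6a2 (0.96), Col14a1 with Col6a1 (0.95), Col1a2 with Col6a3 (0.94), Col1a2 with Col18a1 (0.93) and Col5a1 with Col5a2 (0.91). The values were lower for the type IV pairs Col4a1 with Col4a2 (0.74) and Col4a3 with Col4a4 (0.55). The most opposed pair was Col1a1 with Col8a2 (-0.87). These values describe the 6 libraries of both groups and were not tested. Within each library all chains share its depth and its tissue makeup, which differ between libraries.

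Of the 44 genes, 35 were matched to start regions in the RefSeq set on GRCm38.p6, with 38 promoters of 250 bases before the start, and Col1a1, Col2a1, Col4a3, Col5a2, Col9a3, Col12a1, Col14a1, Col22a1 and Col26a1 were not. The 6-base GGGCGG, searched on both strands, was in 22 of 38 (57.9%) and in 32.7% of all 32851 promoters, TATAAA was in 5 (13.2%) against 12.4%, and CCAAT was in 13 (34.2%) against 33.85%. The promoters of 2 chains that were lowest in replicate 1 and whose windows overlap no annotated exon are shown for contrast, 5′ to 3′ on the strand of the gene, with motif matches in capitals. That of Col3a1, at chr1:45311288-45311537 on the plus strand, has a GC content of 35.2% and TATAAA beginning at -117. That of Col6a2, at chr10:76623631-76623880 on the minus strand, has a GC content of 59.2% and GGGCGG on the opposite strand (read here as CCGCCC) beginning at -175. A match describes the letters and is not a shown binding site.
Col3a1: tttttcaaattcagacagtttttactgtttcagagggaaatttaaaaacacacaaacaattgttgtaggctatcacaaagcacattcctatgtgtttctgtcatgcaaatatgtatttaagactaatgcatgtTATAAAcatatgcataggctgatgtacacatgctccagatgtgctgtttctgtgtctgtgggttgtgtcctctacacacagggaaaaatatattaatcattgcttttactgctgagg
Col6a2: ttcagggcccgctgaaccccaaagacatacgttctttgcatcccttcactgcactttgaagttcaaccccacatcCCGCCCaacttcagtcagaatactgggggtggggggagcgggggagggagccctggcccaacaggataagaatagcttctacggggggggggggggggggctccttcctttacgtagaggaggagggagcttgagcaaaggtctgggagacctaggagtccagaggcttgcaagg

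Genes that act on collagen chains after translation were read from the same fit. Of 31 tested genes of hydroxylation, folding, cleavage and cross-linking, 0 were higher or lower at an unadjusted P under 0.05 in edgeR and DESeq2, with a median log2 fold change of 0.058, and limma-voom gave 1 lower (Colgalt2, a collagen galactosyltransferase, chosen after its values were seen). Lox, the lysyl oxidase that cross-links fibrils, had 32.8, 43.8 and 48.7 CPM in RAG1-/- and 44.0, 32.2 and 33.1 CPM in RAG1-/- Sgo1-/+ (-0.19, SE 0.19, adjusted P=0.890). Serpinh1, the collagen chaperone HSP47, had 259, 327 and 313 CPM against 357, 263 and 211 CPM (-0.11, SE 0.19, adjusted P=0.944). P4ha1, a prolyl hydroxylase subunit, had 88.8, 69.9 and 76.4 CPM against 90.3, 69.8 and 70.5 CPM (-0.03, SE 0.15, adjusted P=0.983). In none of the 3 did the groups separate. Of the 31, 2 (P3h3 and P4hb) had all RAG1-/- Sgo1-/+ libraries above those of RAG1-/-, where 6.24% of all tested genes did. In 1 (Colgalt2) they all lay below, where 5.54% did. Of 10 collagen receptors, among them Itga1, Ddr1 and Ddr2, 0 were higher or lower at that threshold in edgeR and DESeq2, with a median of 0.008. For these limma-voom gave 1 higher (Gp6, on 24 reads in sum). In 1 of the 10 (Itga1) the groups were apart downward and in 0 upward, where 5.54% and 6.24% of all tested genes were. Among all tested genes 3.15% were higher and 2.52% lower at that threshold in edgeR.

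Matrix proteins that bind collagen had a median log2 fold change of -0.36 over 14 tested genes, of which 11 were negative. At an unadjusted P under 0.05, 2 were lower and 0 were higher, in edgeR, DESeq2 and limma-voom. In edgeR 2.52% of all tested genes were lower and 3.15% higher. Lum and Dcn of this list are also fibroblast markers above, so the Lum call is the same in both lists. Aspn, asporin, a leucine-rich proteoglycan that binds collagen, had 38.6, 31.5 and 36.3 CPM in RAG1-/- and 24.2, 18.9 and 18.7 CPM in RAG1-/- Sgo1-/+ (a log2 fold change of -0.78, SE 0.17, edgeR unadjusted P=0.000932, adjusted P=0.832). Lum, lumican, a related regulator of fibril width, had 21.7, 14.5 and 21.2 CPM against 16.2, 9.63 and 9.36 CPM (-0.70, SE 0.27, unadjusted P=0.0252, adjusted P=0.832). The groups were apart in Aspn and overlapped in Lum. Of the 14, 2 (Aspn and Thbs2) had the groups apart downward and 0 upward, where 5.54% and 6.24% of all tested genes did. Leaving out each library in turn kept Aspn between -0.92 and -0.72 and its unadjusted P under 0.05 in each case, whereas that of Lum was above 0.05 without RAG1-/- replicate 1 or 3 and without RAG1-/- Sgo1-/+ replicate 5 or 6.

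TGF-beta is the best known inducer of collagen genes. Of its 15 listed ligands, receptors and mediators, 1 was higher and 1 lower at an unadjusted P under 0.05 in edgeR, DESeq2 and limma-voom. In edgeR 3.15% of all tested genes were higher and 2.52% lower. The log2 fold change was positive in 10 of 15 and negative in 5, with a median of 0.036 against 0.034 over all tested genes. Tgfb1, the main ligand, had 18.5, 11.7 and 13.5 CPM in RAG1-/- and 19.2, 21.7 and 28.4 CPM in RAG1-/- Sgo1-/+ (a log2 fold change of 0.64, SE 0.23, unadjusted P=0.0197, adjusted P=0.832). Smad7, the inhibitory mediator, had 95.2, 90.1 and 103 CPM against 74.1, 64.8 and 55.5 CPM (-0.57, SE 0.14, unadjusted P=0.00232, adjusted P=0.832). Both had the groups apart. Of the 15, 1 (Tgfb1) was apart upward, as were 6.24% of all tested genes. Downward 2 were (Smad7 and Ltbp1), as were 5.54% of all tested genes. Smad7 kept an unadjusted P under 0.05 in each omission of 1 library (log2 fold change -0.67 to -0.47), whereas Tgfb1 was above 0.05 without RAG1-/- replicate 2 or 3 and without RAG1-/- Sgo1-/+ replicate 6.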

How the data were processed

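Lung RNA of 6 mice was made into TruSeq V2 libraries and read in pairs on a MiSeq. The authors deposited a table of whole-number read counts per gene, not normalized, made with GeneSifter on mouse build 37.2, and the submitters' processing notes name BWA and edgeR. Each library stands there under 2 headings with equal values (6 repeated columns were not used), and 63.5 to 69% of counts above 0 were even, so mates may have been counted separately. How reads mapping to several places or to overlapping genes were treated, and whether strand was used, is not given in the sources used here. The authors' list of their own comparison (group means, ratios and p-values) was not used.

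Entrez IDs were matched to symbols for 24048 genes (93.0%). Genes with at least 10 counts in sum were tested with edgeR 4.0.16 in R 4.3.3 (quasi-likelihood test, total count as library size, prior count 0.125, Benjamini-Hochberg over all tested genes). The P-values set the difference between groups against the spread between samples, which is estimated with information shared across genes. The SE is the log2 fold change over the square root of F. The steps were tested on simulated counts that had the same dispersion for every gene and no outlying library. That test therefore does not cover the differences between libraries described above. Levels per kilobase used the longest protein-coding transcript (UTRs included) of GENCODE M21. The alternatives were TMM and DESeq2 1.42.0 size factors, no filter, filterByExpr, DESeq2, limma-voom (limma 3.58.1), halved counts, thinning to 3205822 counts, a prior count of 2 and each library left out. Members, lists, tests and alternatives were chosen with earlier results of these data known. Values in every library are given for the 3 highest chains of each class, those with an unadjusted P under 0.05, those with at least 30 counts and groups apart, the 2 largest increases and decreases among chains with at least 30 counts, and the chains of types I, IV, V and VI that pair. Of other lists, those with an unadjusted P under 0.05, Lox, Serpinh1 and P4ha1 are named. The Col4a1 to Col4a2 and Col4a5 to Col4a6 ratios, Gp6, Colgalt2, Lama5, Myh11, Tek, Cdh5, Awat1, Igkc, Xist and Ddx3y were added after values were seen. So were P3h3, P4hb, Thbs2, Ltbp1 and Tagln, and the separation of Itga1.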

Additional observations from a re-analysis of the deposited data

How the results depend on the processing

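No paired analysis was possible because the groups are different mice and the labels give no pairing. The count of genes called at an adjusted P under 0.05 and 2-fold was 0 to 1 over the omissions of 1 library (H2-K1 without RAG1-/- Sgo1-/+ replicate 5) and 1 with DESeq2's Wald test. Over these omissions 0 to 1 collagen chains were higher and 0 to 4 lower at an unadjusted P under 0.05, and 0 to 1 synthesis and cross-linking genes were higher and 0 to 1 lower. TMM, DESeq2 size factors and limma-voom gave 1 lower synthesis gene. The type IV median ran from -0.10 (without replicate 4) to 0.27 and that of the other chains from -0.068 to 0.25 (without replicate 3). The fibrillar median ran from -0.14 (without replicate 6) to 0.25 and was -0.018 with limma-voom and -0.086 when thinned, and the FACIT median ran from -0.12 (without replicate 6) to 0.29, was -0.009 with filterByExpr and 0.31 with limma-voom. Of all 35, the median ran from -0.068 to 0.16. Sign changes came in Col23a1 (-0.022), Col5a1 (-0.090) and Col5a3 (-0.062) when libraries were thinned and in Col28a1 (0.45) with limma-voom. Over the omissions the log2 fold change ran from -0.59 to 0.15 for Col14a1, -0.085 to 0.36 for Col16a1, -0.37 to 0.033 for Col1a2, -0.070 to 0.16 for Col23a1, -1.02 to 0.84 for Col28a1, -0.23 to 0.038 for Col4a1, -0.22 to 0.33 for Col4a3, -0.22 to 0.34 for Col5a1, -0.21 to 0.084 for Col5a2, -0.17 to 0.48 for Col5a3, -0.095 to 0.25 for Col6a1 and -0.30 to 0.36 for Col6a2, and the cause was not tested. Of 344 values of named chains under alternatives, 308 kept their direction and side of the unadjusted threshold and 27 changed sign. With 3 samples a group and SEs of 0.15 or more, small differences were not detectable.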
